A study of Arabidopsis thaliana with 36 samples.

Results

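The 76 genes described here are those of Arabidopsis thaliana roots whose mRNA was higher 45 or 90 min after seedlings were moved to fresh nitrate medium and was less than 0.5 above its 0 min level on the log2 scale, or lower than it, at 15 and at 180 min. They were selected on the measured values from 32833 gene identifiers, of which 17545 had a mean of at least 2 CPM (reads of a gene per 1000000 reads of its library) over all libraries. The change at a time is the mean of log2(CPM + 1) over the 8 libraries of that time minus the mean over the 4 libraries at 0 min. A gene was kept when its mean was at least 2 CPM, the larger of its changes at 45 and 90 min (its peak change) was at least 0.8, and its changes at 15 and at 180 min were both below 0.5; 3 identifiers were left out by the rule. The time course itself is therefore a description and carries no test. The rule averaged 10 and 1 mM nitrate and did not use the difference between them, which was tested. A gene raised at a single concentration could still enter, so these tests are not wholly independent of the choice.

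Plants were wild-type Col-0 seedlings, 7 days old. After stratification for 2 days at 4 °C they were germinated on 1 mM KNO3 and grown at 22 °C in 16 h light and 8 h dark. They were transferred 2 h after dawn, and whole root tissue was frozen. Of the 9 groups of 4 libraries, 4 had been put on 10 mM KNO3 for 15, 45, 90 or 180 min and 4 on fresh 1 mM KNO3 for the same times. In the remaining group, at 0 min, the mesh under the plants was lifted and set down again on its own 1 mM plate. Each library joined 2 plates of 1 batch. No group stayed on its old plate until 15 min or later, so transfer to fresh medium, the time since transfer and the time of day cannot be told apart in any change from 0 min.

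Roots take up nitrate through plasma-membrane transporters, and nitrate itself acts as a signal that changes transcription within minutes. The first genes to respond include those for nitrate and nitrite reduction and for transcription factors, and later waves reach hormone, sulfur and metal ion metabolism. Sulfate is activated to adenosine phosphosulfate before it is reduced to cysteine or transferred to other compounds, and zinc and iron enter root cells largely through transporters of the ZIP family and are stored in the vacuole.

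Library totals lay between 1376404 and 7512410 reads, with a median of 5126926. The libraries of batch 1 were shallow, with 1563116 to 3459684 reads. Those of the other batches, the lowest library aside, had at least 3310917. The lowest total belonged to the fourth replicate of 1 mM at 45 min. Its median correlation with the other libraries of its group was 0.969, the lowest of all libraries, while the next lowest was 0.979. Summed root tip markers (8 genes, all detected) reached 102 CPM there, while the other libraries at 45 min lay between 52.8 and 68.6 CPM, and summed root hair markers were at 423 CPM. Of the marker lists, root hair, endodermis, xylem, phloem and root tip genes were all detected, with medians at 0 min of 640, 598, 445, 123 and 52.5 CPM, and 11 shoot photosynthesis genes summed to a median of 78.4 CPM. Some of these sums moved at the members' peak times. Shoot photosynthesis genes had medians of 60.5 CPM at 45 min, 63.2 CPM at 90 min and 80.6 CPM at 180 min, with 58 to 70.1 CPM at 90 min against 72.2 to 96.7 CPM at 0 min. Phloem genes lay at 141 to 186 CPM at 90 min against 118 to 129 CPM at 0 min, with a median of 199 CPM at 180 min. Root tip genes had medians of 64.6 CPM at 45 min and 52.8 CPM at 90 min. The part of cell type makeup in the results was not tested. In whole roots, fewer cells of a type and less RNA per cell cannot be told apart. Without the low library the rule found 72 genes, 68 of them among the 76; the 8 lost were PIN3, CYP707A1, DRB5, ATCG01130, AT3G02480, AT3G46110, AT4G29690 and AT5G05900.

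Peak changes ran from 0.80 to 3.15 with a median of 0.94. The largest of the 2 later changes was at 45 min in 39 genes and at 90 min in 37, and in 20 genes both changes were at least 0.8. Across the 76 genes the median change was 0.17 at 15 min, 0.85 at 45 min, 0.83 at 90 min and 0.34 at 180 min, while the median over 18768 tested genes lay between -0.07 and -0.05 at every time. At 180 min 70 genes still lay above their 0 min mean and 6 below it. In 46 genes all 8 libraries of the peak time lay above all 4 at 0 min. Over all tested genes 4.63% met that condition at the larger of their own 2 changes, and since the rule chose on this contrast nothing is read from the comparison. In 72 genes the peak-time mean was above 0 min in each of the 4 batches. The rule chose on this contrast too and the share over all genes was not counted, so nothing is read from that number either.

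**Figure D1:**
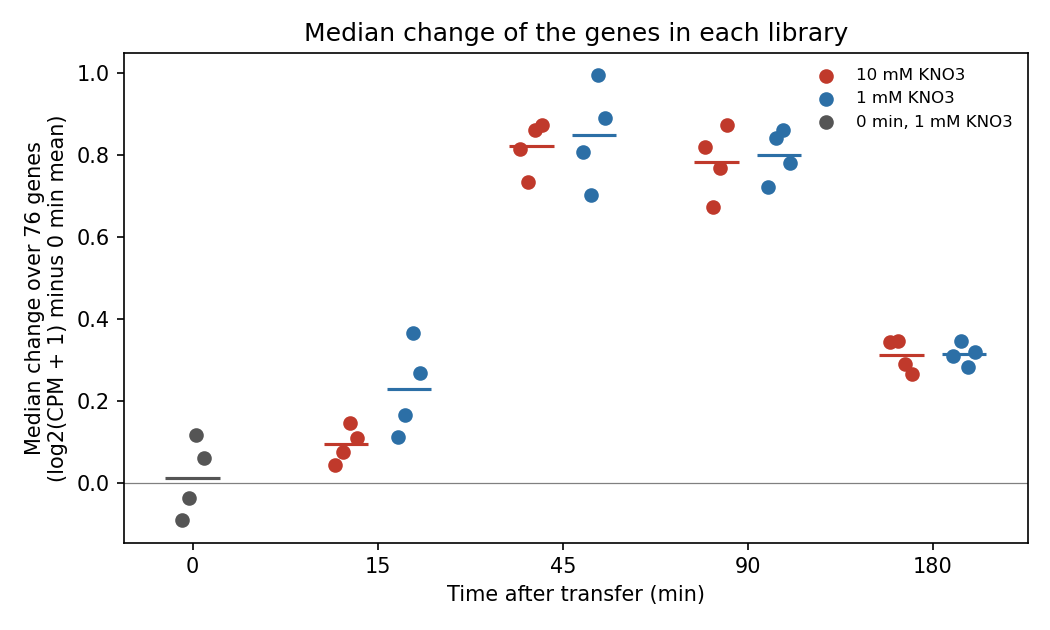
Median change over the 76 genes in each library, as log2(CPM + 1) minus the 0 min mean (y), by minutes after transfer (x); dots are libraries, horizontal lines are means of 4 libraries, red is 10 mM KNO3, blue is 1 mM KNO3 and grey is 0 min. Library medians at 45 min lie between 0.70 and 0.99, and at 180 min between 0.27 and 0.35.

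The threshold passed through a continuous range. Just inside it were the auxin efflux carrier PIN3 with a peak change of 0.8001 and TOE3 with 0.8013, and just outside were AT1G73210 with 0.797 and AT1G07743 with 0.791. Only 19 of the 76 met the whole rule again without each batch in turn and without the low library, among them AT4G29930, AT4G08170, UMAMIT22, WRKY29, LSU3 and ZIP3.

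Upstream sequence is shown first because a short motif, picked from 20 searched after their shares were seen, was more frequent before the members than before other genes. The G-box, CACGTG, a palindrome bound by basic helix-loop-helix and bZIP factors, lay in the 250 bases before the annotated gene start of 13 of 75 members (17.3%), against 7.36% of 18753 tested genes. In windows of 1000 bases it was present in 29.3% of members and 16.1% of all. The following sites are those of the 6 G-box members with the largest peak changes, read from RefSeq assembly TAIR10.1 on the strand of the gene, 5′ to 3′, with the motif in capitals and up to 20 bases on each side.
AT4G29930, chr4:14643923-14643968, plus strand: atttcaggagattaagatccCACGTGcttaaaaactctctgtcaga
AT2G18193, chr2:7919464-7919509, minus strand: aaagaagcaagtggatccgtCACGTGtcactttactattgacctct
UMAMIT22, chr1:16446945-16446990, minus strand: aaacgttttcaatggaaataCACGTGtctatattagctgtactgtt
MAPKKK17, chr2:13800155-13800200, minus strand: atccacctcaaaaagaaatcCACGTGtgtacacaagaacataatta
LSU3, chr3:18373148-18373188, minus strand: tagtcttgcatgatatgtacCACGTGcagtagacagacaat
PRN, chr3:21893754-21893799, plus strand: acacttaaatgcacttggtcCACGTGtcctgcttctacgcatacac

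PRN holds 2 G-boxes in its window, of which the one farther from the gene start is shown. The motif starts 51, 144, 52, 81, 21 and 38 bases before the gene start in the order listed. The other members with a G-box were AT4G31100, AT5G54300, AT1G20490, CYP707A1, AT4G27870, AT3G02480 and AT2G04400. They came from all 8 role classes used below, with 7 among genes highest at 45 min and 6 among those highest at 90 min. Of the other motifs searched on both strands, the site II element TGGGCC was in 4% of members and 16.5% of all genes. The W-box core TTGAC was in 54.7% and 45.7%, and the ACGT core, which the G-box contains, in 46.7% and 44.7%. The zinc deficiency response element TGTCGACA, added because zinc transporters were among the members, was in 0 of 75 windows and in 0.283% of all. Heat shock elements GAANNTTC were in 4% and 9.31%, and the short NIGT1 site GAATC in 34.7% and 39.1%. Also searched were the NIGT1 palindrome GAATATTC, evening element AAATATCT, CCA1-binding site AAAATCT, the ERF-bound box GCCGCC, DRE core CCGAC, auxin response element TGTCTC with its high-affinity form TGTCGG, the sugar response element TATCCA, telo box AAACCCTA, E2F site TTTCCCGC, type-B ARR core AGATT, calmodulin-bound factor site CGCGTT and MYB core AACGG. Their shares lay between 0% and 60% of members and between 0.608% and 62.4% of all genes. These shares describe letters in a window and carry no test.

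Genes are described by role classes assigned after the members were seen. For some, such as AT1G15670 and AT2G04400, the product name itself does not give the role. Of 7 metal transport genes 6 were highest at 90 min and 1 at 45 min. The plasma-membrane zinc transporter gene ZIP3 had 103, 99.7, 106 and 109 CPM at 0 min. Its libraries had a lowest, median and highest level of 69.1, 85.3 and 97.2 CPM at 15 min, 45.8, 137 and 185 CPM at 45 min, 176, 197 and 247 CPM at 90 min, and 76.2, 99.4 and 107 CPM at 180 min. Every 90 min library lay above every 0 min library, every 15 min library lay below them, and the value of 45.8 CPM is that of the low library. The change of ZIP3 was -0.30 at 15 min, 0.96 at 90 min and -0.10 at 180 min.

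ZIP5 was also lowest at 15 min and highest at 90 min. It had 16, 14.5, 10.1 and 10.7 CPM at 0 min, between 4.81 and 10.5 CPM at 15 min, between 21.9 and 28.3 CPM at 90 min and between 9.95 and 20.4 CPM at 180 min. Its changes were -0.66 at 15 min and 0.94 at 90 min, with no overlap between the 90 min and the 0 min libraries. The third family member, ZIP9, was expressed at 6.96 to 12.9 CPM at 90 min and at 2.67, 3.62, 4.26 and 5.54 CPM at 0 min, again without overlap, a change of 1.00. Of the 17 ZIP-family genes in the annotation 14 were tested, and these were the 3 with a change of at least 0.8 at 45 or 90 min; this family, like those below, was chosen after the members were seen. ZIP4 reached 0.78 at 45 min and 0.70 at 90 min, just under the limit, while ZIP1 was at -0.57 at 90 min and the main iron uptake transporter gene IRT1 at -0.68 at 90 min and -2.24 at 180 min. The family median was -0.21 at 45 min and -0.11 at 90 min.

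The other metal transport members followed a flatter course. ZIF1, which encodes a vacuolar importer of the metal chelator nicotianamine, had between 27.8 and 42.5 CPM at 90 min and 23.5, 14.8, 16.4 and 21 CPM at 0 min (change 0.89). The vacuolar iron transporter family contributed AT4G27870, with 170 to 248 CPM at 90 min and 83.3 to 144 CPM at 0 min (change 0.88), and MEB2, highest at 45 min with 62.4 to 114 CPM against 31.4 to 48.9 CPM at 0 min (change 0.89). In all these cases the peak-time and 0 min libraries did not overlap. The heavy-metal-associated protein gene AT2G18196 changed by 0.90 at 90 min and lies next to another member, AT2G18193, the only adjacent pair on the chromosomes. Of 5 tested vacuolar iron transporter genes these 2 reached 0.8. None of the 12 tested genes of a list of iron uptake and homeostasis genes was a member.

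All 3 sulfur genes were highest at 90 min. AT5G26220 encodes a ChaC-like protein, a family that breaks down glutathione. It had 3.21, 4.83, 5.43 and 5.54 CPM at 0 min, and its lowest, median and highest levels were 2.99, 4.63 and 4.96 CPM at 15 min, 1.45, 5.72 and 9.04 CPM at 45 min, 10.7, 17.7 and 24.9 CPM at 90 min, and 4.34, 7.09 and 11.3 CPM at 180 min. The change at 90 min was 1.67 and that at 45 min 0.11, or 0.30 without the low library, so most of the increase came after 45 min. At 90 min its libraries did not overlap those at 0 min.

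LSU3, a small protein gene named for its response to low sulfur, had 6.41, 13.3, 13.9 and 22.7 CPM at 0 min, between 3.49 and 14.8 CPM at 15 min, and between 17.6 and 44.9 CPM at 90 min. These ranges overlapped, with each batch higher at 90 min than at 0 min, and the changes were -0.64, 0.78, 1.12 and 0.37 at 15, 45, 90 and 180 min. LSU1 and LSU2 were also lowest at 15 min, but at 90 min LSU1 was still below its 0 min level and LSU2 close to it. Their changes were -1.23, -0.52, -0.18 and -0.57 for LSU1 and -1.29, -0.39, 0.04 and -0.44 for LSU2 at 15, 45, 90 and 180 min. LSU4 was at -1.80, -0.78, -1.20 and -1.04. APK, an adenosine phosphosulfate kinase that makes the sulfate donor for sulfation, had 157 to 245 CPM at 90 min and 67.9, 84.9, 119 and 125 CPM at 0 min (change 1.04). Its paralogue AKN2 had a change of 1.34 at 90 min but was at 0.64 at 15 min and 0.58 at 180 min, outside the rule. Of 13 tested genes of a sulfate assimilation list AT5G26220 was the only member, and the list's median change was 0.18 at 45 min and 0.58 at 90 min; the root sulfate uptake transporter gene SULTR1;2 was at 3.18 at 90 min and 2.32 at 180 min.

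**Figure D2:**
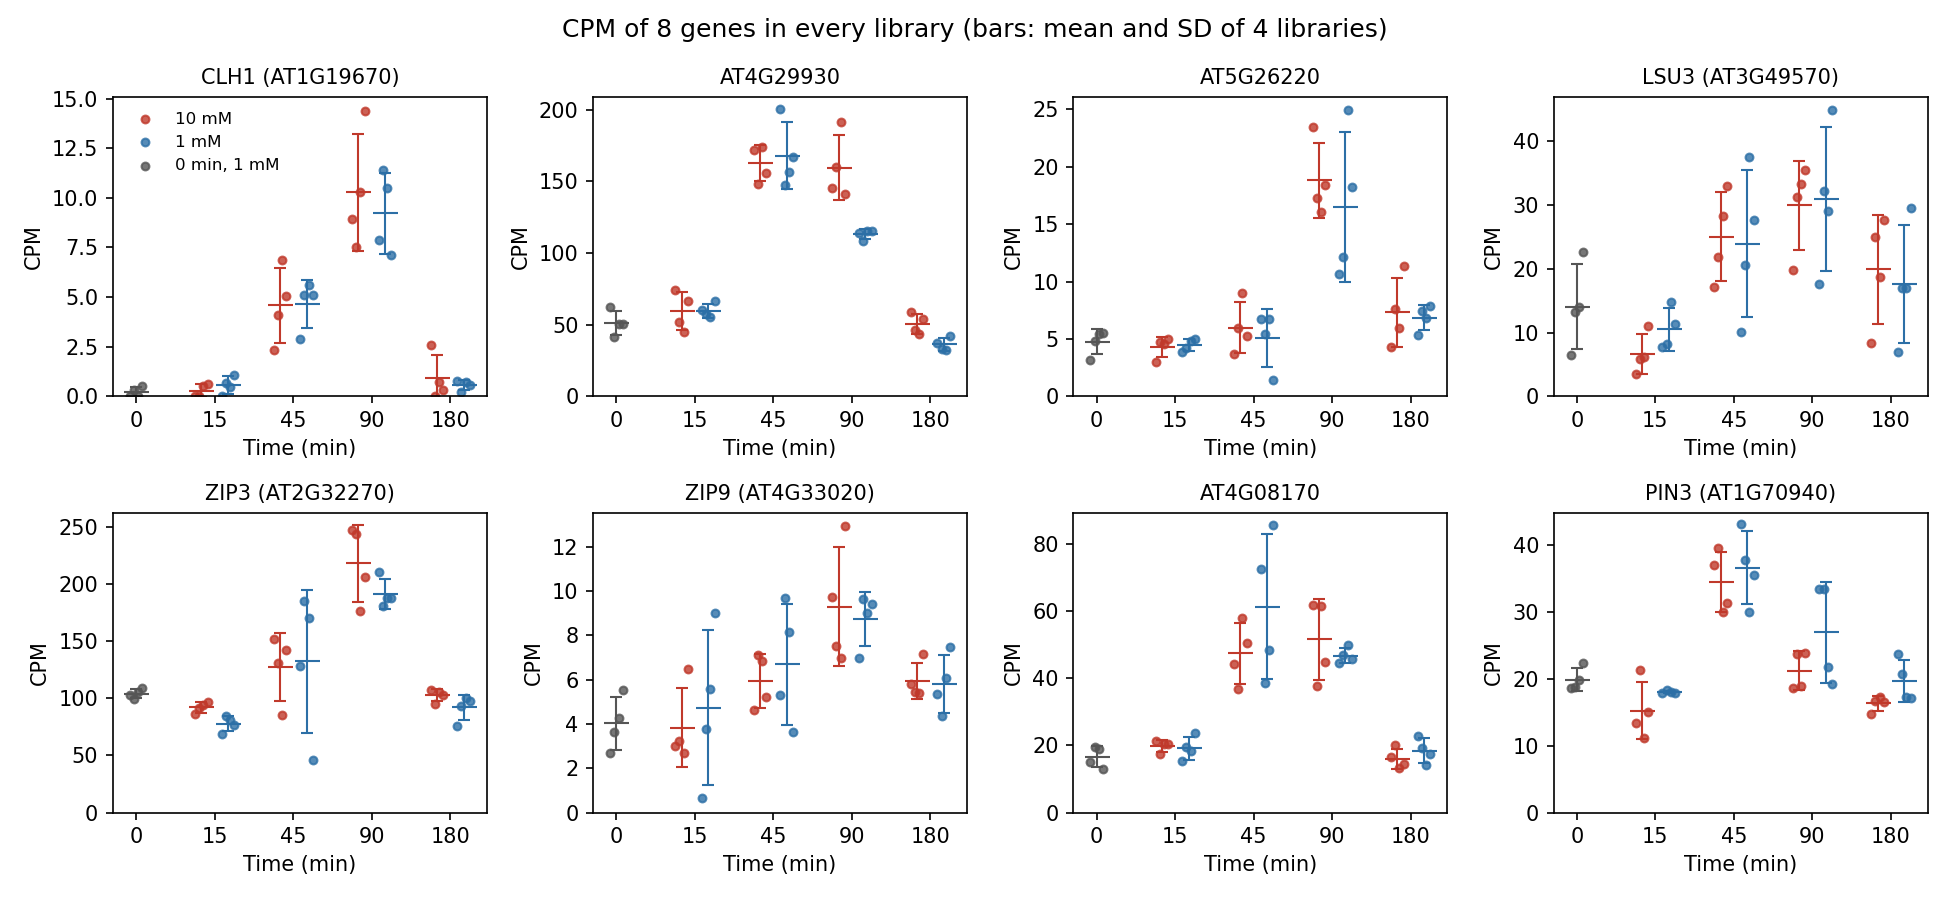
CPM (y, from 0) in every library against minutes after transfer (x) for 8 genes; dots are libraries, bars are the mean and SD of 4 libraries, red is 10 mM KNO3, blue is 1 mM KNO3 and grey is 0 min. AT5G26220 is low at 45 min and lies between 10.7 and 24.9 CPM at 90 min, whereas PIN3 is highest at 45 min, between 29.9 and 43.2 CPM.

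Among nitrogen and carbon genes, UMAMIT22, of an amino acid transporter family, changed most. It had 16.6, 12.7, 13.9 and 14.1 CPM at 0 min, 12 to 20.8 CPM at 15 min, 28.3 to 44.3 CPM at 45 min, 20.9 to 36.5 CPM at 90 min and 13.8 to 19.3 CPM at 180 min. Both the 45 and the 90 min libraries lay above all 0 min libraries, and the change was 1.25 at 45 min. It was the only member among 33 tested UMAMIT genes, whose median changes were -0.23 and -0.05 at 45 and 90 min. NRT1.8, a transporter that takes nitrate out of the xylem sap, had 3.36 to 31.2 CPM at 45 min and 3.21, 2.11, 2.94 and 6.04 CPM at 0 min, overlapping ranges with a change of 1.06.

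G6PD3, a plastid glucose-6-phosphate dehydrogenase that supplies reducing power for nitrite reduction, had 61.5, 55.6, 74.3 and 63 CPM at 0 min, 69 to 150 CPM at 45 min and 58.6 to 135 CPM at 90 min. Its change was 0.82 at 45 min and 0.29 at 90 min, and 1 of the 45 min libraries, the low one, overlapped the 0 min range. Of 20 tested genes of nitrate assimilation and reducing power it was the only member. The member with the highest mean, 189 CPM, was AT2G04400, an aldolase-type TIM barrel protein gene, with 183 to 274 CPM at 90 min and 120 to 142 CPM at 0 min. The nucleoside hydrolase gene NSH3 and the amino acid permease gene AAP7 had peak changes of 0.86 and 0.81 at 90 min, without overlap.

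Of 11 signalling genes 9 were highest at 45 min. AT4G08170, an inositol trisphosphate kinase gene, had 15, 19.6, 18.9 and 13.1 CPM at 0 min. Its libraries had 15.4, 20 and 23.6 CPM (lowest, median and highest) at 15 min, 36.8, 49.5 and 85.7 CPM at 45 min, 37.8, 46.4 and 62 CPM at 90 min and 13.3, 17 and 23 CPM at 180 min. The 180 min libraries were thus close to those at 0 min, with changes of 1.61, 1.51 and 0.04 at 45, 90 and 180 min.

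The membrane-associated kinase regulator gene MAKR5 had 7.66 to 17.6 CPM at 45 min and 2.5 to 5.71 CPM at 0 min (change 1.33), and was at 0.59 by 90 min. MAPKKK17, an upstream kinase of a MAP kinase cascade, had 26.9 to 53.8 CPM at 45 min and 12.1 to 19.2 CPM at 0 min (change 1.22). Its relative MAPKKK15 was highest at 90 min with 0.88. The 45 min change of MAPKKK15 was 0.52, or 0.81 without the low library, which leaves the 2 times only 0.06 apart. Of 8 tested MAPKKK13 to MAPKKK21 genes 6 had a change of at least 0.8 at 45 or 90 min, but MAPKKK14, MAPKKK19 and MAPKKK21 were already at 2.21, 1.41 and 3.00 at 15 min and so fell outside the rule. MPK19, a MAP kinase gene, was at 0.90 at 45 min and -0.38 at 180 min. The remaining signalling members, with changes between 0.81 and 0.97, were the peptide gene CLE6, the phospholipase C gene PLC4, the glutamate receptor gene GLR5, and the kinase genes IOS1, AT4G31100 and AT1G28390; IOS1 alone of these was highest at 90 min.

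The class of hormone metabolism, transport and response held 5 members. AT1G15670, a kelch repeat protein gene, had 20.3, 26, 26.9 and 20.7 CPM at 0 min, 12.4 to 17.9 CPM at 15 min, 30 to 55.7 CPM at 45 min and 54 to 84.3 CPM at 90 min. Its 15 min libraries lay below and its 45 and 90 min libraries above all 0 min libraries, with changes of -0.50, 0.81 and 1.37. PIN3, which exports auxin from root cells, had 18.7, 18.7, 19.8 and 22.3 CPM at 0 min, 29.9 to 43.2 CPM at 45 min and 18.6 to 33.4 CPM at 90 min, so that only the 45 min libraries lay wholly above. Without the low library its change at 45 min was 0.798, just under the limit. Of 9 tested auxin carrier genes PIN3 was the only member; PIN2 was at 0.46 at 45 min and PIN5 at -2.08.

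CYP707A1, which encodes an abscisic acid-degrading enzyme, had 1.44 to 9.44 CPM at 45 min and 1.51 to 2.79 CPM at 0 min, overlapping ranges with a change of 0.92 that was 0.79 without the low library. It was the only member among 9 tested abscisic acid genes; its paralogue CYP707A3 was at 1.91, 2.21 and 2.35 at 15, 45 and 90 min. LOX6, a lipoxygenase gene of jasmonate precursor synthesis, and AT5G23360, an abscisic acid-responsive-like GRAM domain gene, had peak changes of 0.80 and 0.83.

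Transcription factor genes held the second largest change. AT4G29930, a basic helix-loop-helix gene, had 62, 41.7, 50.2 and 50.4 CPM at 0 min. Its lowest, median and highest levels were 45.2, 58.8 and 74.2 CPM at 15 min, 147, 162 and 201 CPM at 45 min, 108, 128 and 192 CPM at 90 min and 32.3, 43 and 59 CPM at 180 min. The 45 and 90 min libraries lay far above the rest, and the changes were 1.68 and 1.39, with -0.24 at 180 min.

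AT1G80450, a VQ motif gene of a family that binds WRKY factors, had 6.84 to 15 CPM at 90 min and 2.14 to 4.83 CPM at 0 min (change 1.41, after -0.49 at 15 min). WRKY29 had 12.2 to 30.5 CPM at 90 min and 4.53 to 10.6 CPM at 0 min (change 1.24), and WRKY11 had a change of 0.87 at the same time. These were 2 of 53 tested WRKY genes, of which 12 had a change of at least 0.8 at 45 or 90 min; WRKY40, WRKY18 and WRKY22, which were outside the rule, were already at 4.24, 3.57 and 1.61 at 15 min. CRF11, of the AP2/ERF class, was at 1.08 at 45 min and 0.34 at 90 min. The other members of this class were the VQ gene AT2G42140, the AP2-type gene TOE3, the double-stranded RNA-binding protein gene DRB5, the homeodomain-like gene AT2G02060 and the SWIB domain gene AT1G49520, with peak changes of 0.80 to 1.00 at mean levels of 2.39 to 7.14 CPM.

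The 19 other enzymes included the largest change of all. CLH1, a chlorophyllase gene known to respond to jasmonate and wounding, had 0, 0.302, 0 and 0.504 CPM at 0 min. Its lowest, median and highest levels were 0, 0.499 and 1.09 CPM at 15 min, 2.31, 5.06 and 6.86 CPM at 45 min, 7.11, 9.61 and 14.4 CPM at 90 min and 0, 0.651 and 2.6 CPM at 180 min. Every 90 min library exceeded every 45 min library, and the change at 90 min, 3.15, understates the ratio of so low a gene because 1 is added to each CPM.

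UGT78D1, a flavonol rhamnosyltransferase gene, was the member lowest at 180 min, with 9.06 to 22.2 CPM at 0 min, 17.1 to 55.9 CPM at 45 min and 4.85 to 14.2 CPM at 180 min, changes of 1.09 and -0.58. The serine carboxypeptidase-like gene scpl31 was at -0.47 at 45 min, or -0.26 without the low library, and at 0.83 at 90 min, when its 28.8 to 58 CPM exceeded the 16.6 to 26.6 CPM at 0 min. The lipase-like gene AT4G16230 showed the opposite order, 1.01 at 45 min and 0.25 at 90 min. Peak changes of 0.95 or more were also seen for the terpenoid synthase gene AT2G18620, the pectin methylesterase gene PMEPCRA, the phosphatidylserine decarboxylase gene PSD2, the dehydrogenase-like gene SDR5, the oxygenase gene AT4G10500, the acyltransferase gene AT3G50290 and the hydrolase gene AT4G39970. Lower peak changes, from 0.80 to 0.92, belonged to AT1G20490, AT5G05900, AT3G26760, AT4G29690, AT2G19060, AT5G07860, the thioredoxin gene TH7 and the callose synthase gene AT3G14780.

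Of 15 members with other or unknown products, AT4G28290, an uncharacterized protein gene, had 32.7 to 89 CPM at 45 min and 15.5 to 21.5 CPM at 0 min (change 1.36). AT2G18193, an ATPase-type protein gene, had 25.3 to 48.2 CPM at 90 min and 8.39 to 16.6 CPM at 0 min (change 1.32). AT1G44050, of the C1 domain class, had 9.25 to 21.1 CPM at 90 min and 5.04 to 5.44 CPM at 0 min (change 1.31), and its 45 min change was 0.06, or 0.45 without the low library, in which it had 0 CPM. None of the 3 overlapped at its peak time.

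ATCG01130 and AT3G02480 had their highest values in the low library. The plastid-genome identifier ATCG01130 had 134 CPM there against 2.88 to 7.2 CPM in the other 1 mM libraries at 45 min, and AT3G02480, a late embryogenesis abundant protein gene, had 55.2 CPM against 3.87 to 8.65 CPM. Without that library their changes at 45 min were 0.63 and 0.42, in place of 1.19 and 0.83, and neither met the rule. RSH2 and the pirin gene PRN had peak changes of 1.03 and 0.98 at 90 min. The other members of the class, with peak changes of 0.83 to 1.15, were AT1G33790, AT2G14846, AT5G54300, AT3G14395, the MATE efflux gene AT5G44050, AT4G36230, AT3G46110 and the non-coding RNA gene AT3G05055.

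**Figure D3:**
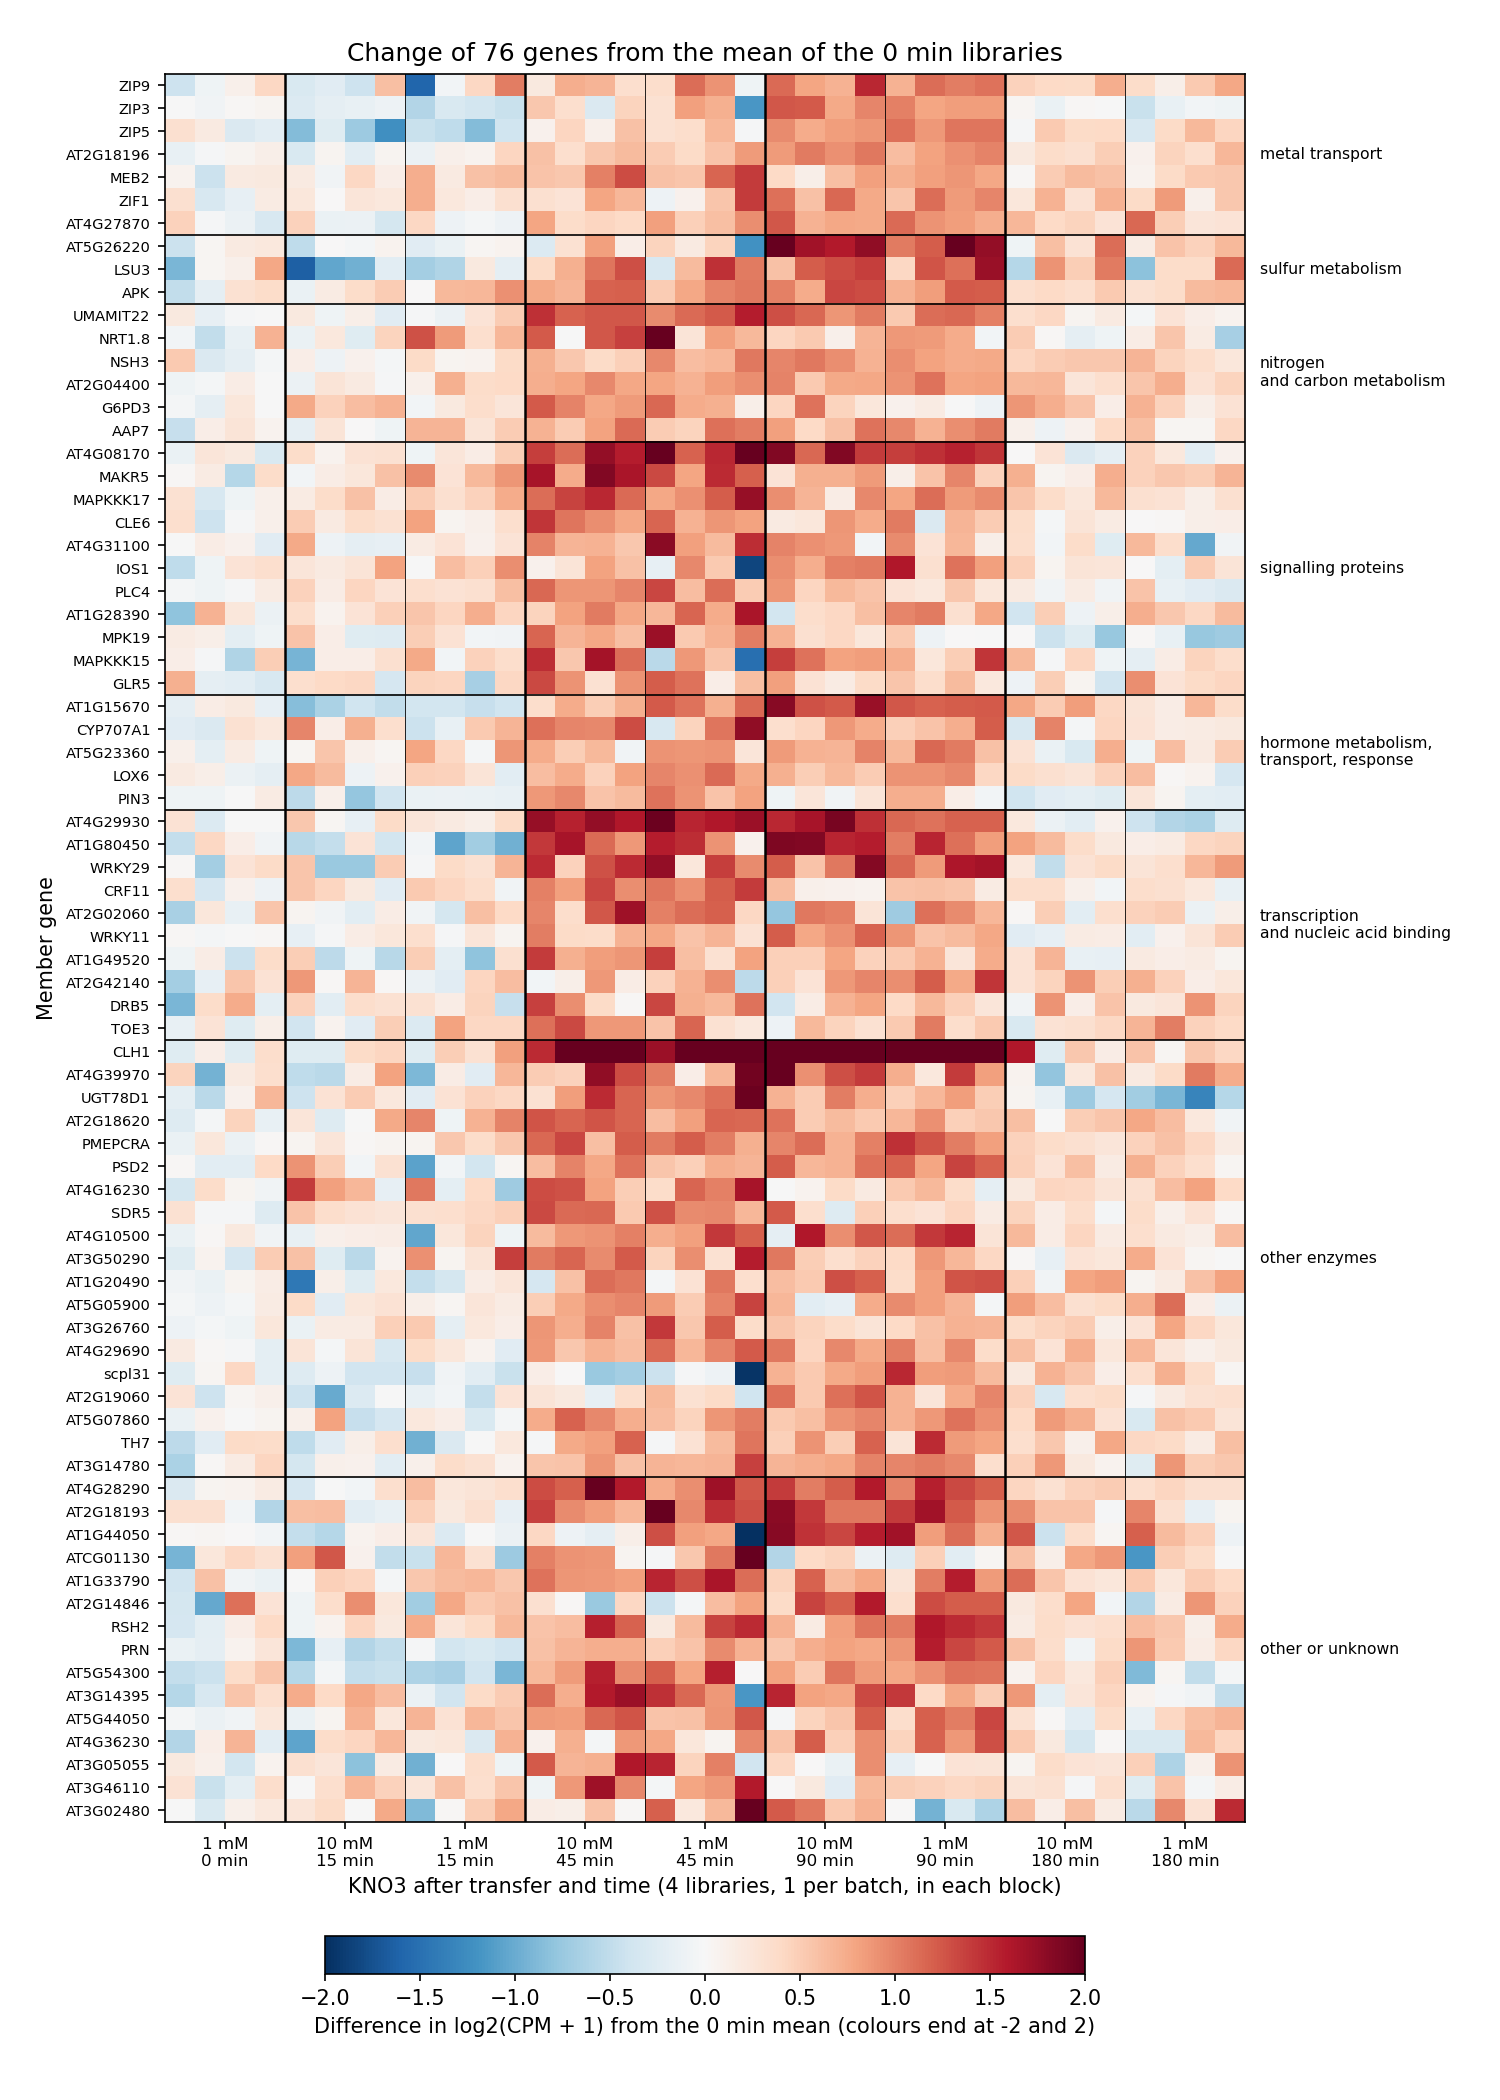
Each row is 1 of the 76 genes and each column 1 library, in blocks of 4 by nitrate and time (x); colour is the difference in log2(CPM + 1) from the gene's 0 min mean, red higher and blue lower, cut at -2 and 2, and lines divide the role classes. The 45 and 90 min blocks are red for most genes, and the last column of the 1 mM block at 45 min departs from its neighbours in genes such as ZIP3, AT5G26220 and AT1G44050.

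The rule used the changes at 45 and 90 min and the role classes were drawn up afterwards, so the peak times given by class are a description, and no difference between classes was tested. The changes at 90 min exceeded those at 45 min most in AT5G26220, scpl31, AT1G44050 and CLH1, by between 0.95 and 1.56. They were furthest below in ATCG01130, AT4G16230, MAKR5 and CRF11, with differences of -1.16, -0.76, -0.75 and -0.74. Without the low library ATCG01130 was at -0.60 and AT3G05055 was furthest below at -0.83, and AT1G44050, at 0.86, was behind AT2G14846 at 1.05.

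**Figure D4:**
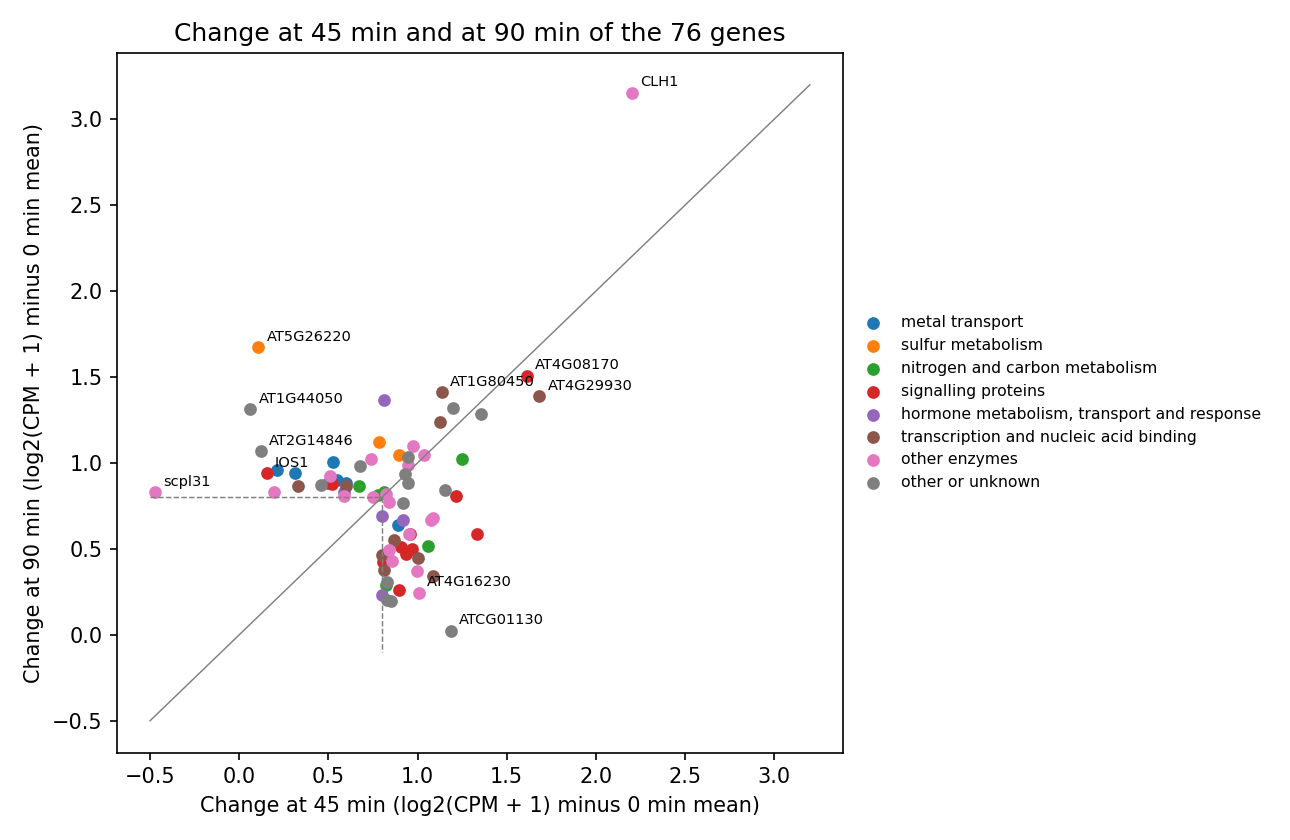
Change at 90 min (y) against change at 45 min (x) for the 76 genes, both as log2(CPM + 1) minus the 0 min mean, coloured by role class; the solid line marks equal changes and the dashed lines the 0.8 limit. AT5G26220 at 0.11 and 1.67 lies far above the line, and ATCG01130 at 1.19 and 0.02 far below it.

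The comparison of 10 with 1 mM KNO3 asks whether these genes followed the amount of KNO3 given. The groups are labelled by KNO3 alone, so nitrate and the potassium given with it cannot be told apart. In edgeR's quasi-likelihood test no member was called for 10 mM against 1 mM at 15, 45, 90 or 180 min, for the mean of 45 and 90 min, or for a difference that varied between times, at a Benjamini-Hochberg adjusted p of 0.05. The background was the same, with 0.0% of 18768 genes called in either direction in any of these tests. At an unadjusted p under 0.05 the members numbered 7, 10, 8, 4, 8 and 5 in the 6 tests in that order, or 9.21%, 13.2%, 10.5%, 5.26%, 10.5% and 6.58%. Over all genes the numbers were 486, 915, 873, 369, 831 and 405, or 2.59%, 4.88%, 4.65%, 1.97%, 4.43% and 2.16%. The higher shares among members are not independent of the rule, which averaged both concentrations. Only 45 members rose by at least 0.8 in both at the peak time, and AT3G02480 rose by 0.21 in 10 mM and 1.45 in 1 mM. Nothing is read from the shares. With DESeq2 7 genes were called for the mean of 45 and 90 min and none in the other tests, no member among them. With the batch as a block 2, 0, 9, 0, 13 and 0 genes were called, again without a member. The lowest edgeR adjusted p of a member at 90 min was 0.799 without the block. With the block the lowest values of a member were 0.599, 0.376, 0.079, 0.9997, 0.272 and 0.439 in the 6 tests. The members at an unadjusted p under 0.05 then numbered 11, 13, 15, 7, 13 and 18. The matching numbers over all genes were not counted for that fit, so nothing is read from these.

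The tests were not precise enough to exclude modest differences. The median half-width of the members' 95% intervals was 0.53, 0.49, 0.47 and 0.52 on the log2 scale at 15, 45, 90 and 180 min, and 0.33 for the mean of 45 and 90 min. Members' median log2 fold changes were -0.10, -0.02, -0.01 and 0.02 at the 4 times, against 0.00, -0.01, 0.00 and 0.00 over all genes. At 15 min 24 of 76 members (31.6%) were higher in 10 mM, against 50.2% of all genes. At 45, 90 and 180 min the members' shares were 43.4%, 48.7% and 55.3%, against 48.9%, 50.3% and 49.5% of all genes. Members measured in the same libraries are not independent, so nothing is read from these shares. At 15 min the median change over the members was 0.0443, 0.0755, 0.111 and 0.146 in the 10 mM libraries of batches 1 to 4. In their 1 mM libraries it was 0.112, 0.166, 0.268 and 0.367. It was lower in 10 mM in each batch, though the ranges overlapped. At 45, 90 and 180 min the sign differed between batches.

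**Figure D5:**
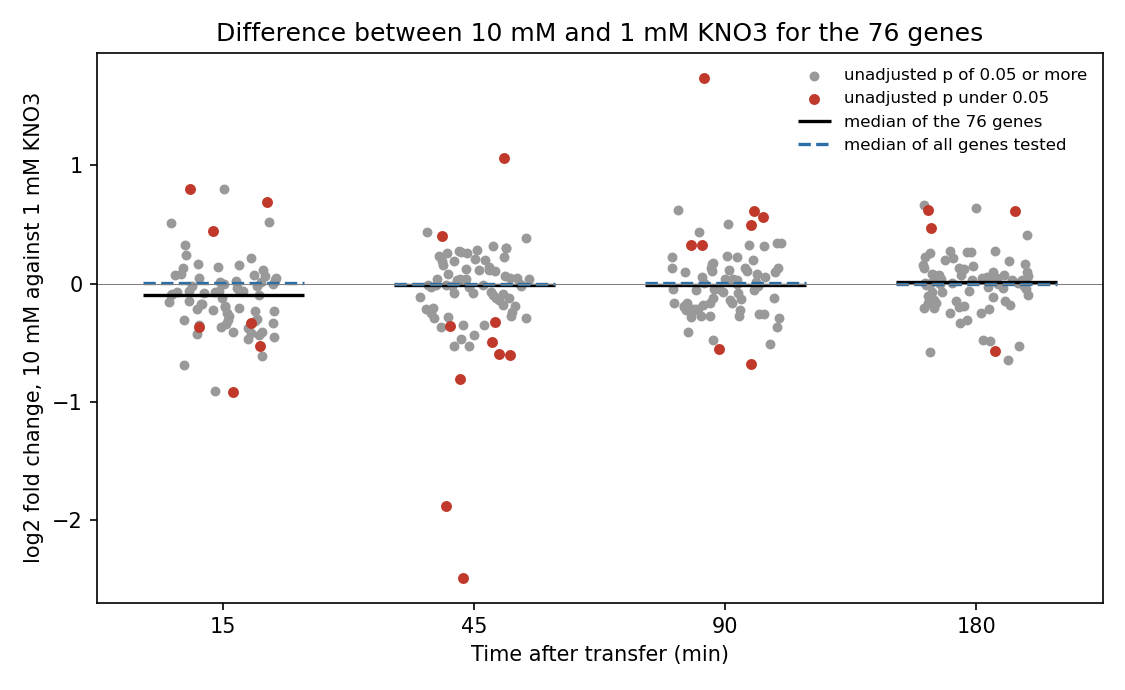
edgeR log2 fold change for 10 mM against 1 mM KNO3 (y) at 4 times (x); each dot is 1 of the 76 genes, red at an unadjusted p under 0.05, with the median of the 76 as a solid line and of all tested genes as a dashed line. The medians of the 76 are -0.10 at 15 min and within 0.02 of 0 at the later times, and the lowest dots at 45 min are ATCG01130 at -2.49 and AT3G02480 at -1.88.

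None of the members described next was called, and they were picked after their results for 10 against 1 mM were seen. Where the block is not named, adjusted p-values are those of the edgeR fit without it, which left the batches unpaired. How many tested genes had groups that did not overlap was not counted, so nothing is read from a lack of overlap here. G6PD3 was the member with the smallest p for the mean of 45 and 90 min. It had 108, 87.2, 97.1 and 103 CPM in 10 mM and 60.8, 72.3, 80.6 and 75.2 CPM in 1 mM at 15 min, and 85.1, 135, 86.2 and 74.5 CPM in 10 mM and 67.3, 71.3, 62.8 and 58.6 CPM in 1 mM at 90 min. At both times the groups did not overlap and 10 mM was higher in each batch. At 45 min, its peak time, it had 150, 127, 109 and 115 CPM in 10 mM and 141, 107, 105 and 69 CPM in 1 mM, overlapping groups with a log2 fold change of 0.19 ± 0.19 (SE, 95% interval -0.19 to 0.57, edgeR adjusted p = 0.979). The 69 CPM is that of the low library. The log2 fold change over 45 and 90 min was 0.38 ± 0.13 (SE, 95% interval 0.11 to 0.65, n = 4 libraries per group and time), with an adjusted p of 0.999 in edgeR and 0.272 with the batch as a block, and was 0.30 ± 0.13 without the low library.

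AT4G29930 had 145, 160, 192 and 141 CPM in 10 mM and 114, 108, 115 and 116 CPM in 1 mM at 90 min, and 59, 46.4, 43.6 and 54 CPM in 10 mM and 37.5, 33.3, 32.3 and 42.3 CPM in 1 mM at 180 min. The groups did not overlap at either time. The log2 fold changes were 0.50 ± 0.15 (95% interval 0.20 to 0.79, edgeR adjusted p = 0.844) and 0.47 ± 0.16 (0.15 to 0.78, edgeR adjusted p = 1.00), with 10 mM higher in 4 of 4 batches each time. At 45 min, where the gene is highest, it was not among the members with an unadjusted p under 0.05.

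PRN went the other way. It had 79.4, 91.1, 96.1 and 94 CPM in 10 mM and 101, 163, 139 and 128 CPM in 1 mM at 90 min, without overlap and lower in 10 mM in every batch. Its log2 fold change was -0.55 ± 0.15 (95% interval -0.86 to -0.25, edgeR adjusted p = 0.799), while at 45 min both groups averaged 87.8 CPM. RSH2, named as a root hair gene, had 42.5, 29, 46.7 and 55.6 CPM in 10 mM and 53.3, 80.3, 74.5 and 70.3 CPM in 1 mM at 90 min, overlapping groups with a log2 fold change of -0.68 ± 0.21 (edgeR adjusted p = 0.844).

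PSD2 had the smallest p at 15 min, with 15.4, 11.4, 7.49 and 9.93 CPM in 10 mM and 3.2, 7.5, 5.88 and 8.07 CPM in 1 mM. The groups overlapped, and the log2 fold change was 0.69 ± 0.23 (95% interval 0.23 to 1.16, edgeR adjusted p = 1.00). AT3G02480 had 8.91, 7.74, 5.07 and 5.86 CPM in 10 mM and 3.25, 1.18, 2.4 and 1.74 CPM in 1 mM at 90 min, a log2 fold change of 1.74 ± 0.56 (edgeR adjusted p = 0.844) between groups that did not overlap. At 45 min its log2 fold change of -1.88 ± 0.51 was -0.52 without the low library, and that of ATCG01130, -2.49 ± 0.65, was 0.05.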

How the data were processed

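Root poly-A RNA went into 36 libraries of the BrAD-seq digital gene expression kind, per the labels' protocols. The deposited tables, 1 for each library, hold raw read counts for 32833 identifiers, not normalized by the authors. The submitters' processing notes name Bowtie2, HTSeq, SAMtools, FastQC and the build TAIR10. How these tools were set, and whether strand was used, is not stated, so reads of overlapping, antisense or near-identical genes cannot be told apart. CPM is 1000000 times the count over the library total and is not divided by length. Names, products and upstream sequences come from RefSeq assembly TAIR10.1, in which 75 of the 76 members and 32548 identifiers were found; 37 members have a symbol.

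The members, gene lists, tests and the rule for named genes were chosen with earlier results of these data known, and role classes, families and the zinc element after the members were seen. The rule names the 12 members with the largest peak change, up to 4 members in each of 23 gene lists (332 tested genes, of which 4 are members; 0 list genes were called for 10 mM against 1 mM), 2 genes on each side of the threshold, the 4 members with the highest mean CPM, the 4 lowest at 180 min, and 4 each with the largest differences between 90 and 45 min. Other members were named by role, or for their difference between 10 and 1 mM, after their values were seen.

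Concentration was tested with edgeR 4.0.16, run in R 4.3.3 on the deposited counts: TMM scaling, a filter on low counts that left 18768 genes and all 76 members, 1 coefficient per group over all 36 libraries, a two-sided quasi-likelihood test and Benjamini-Hochberg adjustment over all genes within each comparison. The script was tested on simulated data. Alternatives were DESeq2 1.42.0, RLE scaling, no filter, only the 8 libraries compared, a batch block, and leaving out batches or libraries. Replicate numbers were taken as pairing because they are batch labels; within a batch, the 10 and 1 mM libraries deviated from their groups with correlations of 0.0325 to 0.441, 14 of 16 above 0.1. Within groups, 54 library pairs differed beyond sampling noise (chi-square per degree of freedom 2.62 to 11.6). Nothing in the labels tells whether batches were separate cultures, so a p-value measures only the spread between these libraries, which may be technical.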

Additional observations from a re-analysis of the deposited data

Results flagged for a closer look

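In 324 groups of 4 libraries (36 members in 9 groups) the highest or lowest library was set apart in 17, with a gap to the nearest other library, as a share of the group's range on the log2(CPM + 1) scale, above Dixon's 95% critical value for 4 values. Chance flags about 1 group in 20. That share is given in parentheses for each.

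In the low library of 1 mM at 45 min, AT1G44050 had 0 CPM against 9.76 to 14.4 CPM in the other 3 (0.869), and AT5G26220 had 1.45 CPM against 5.45 to 6.73 CPM (0.843). CLH1 was low in the first library of the same group, with 2.88 against 5.09 to 5.6 CPM (0.846). ATCG01130 was low in the fourth library of 10 mM at 45 min, 3.1 against 6.27 to 6.93 CPM (0.869), and in the first at 0 min, 1.07 against 3.62 to 4.26 CPM (0.862).

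AT4G27870 was high in batch 1 in 3 groups: 181 against 135 to 140 CPM in 10 mM at 45 min (0.857), 248 against 170 to 178 CPM in 10 mM at 90 min (0.87), and 139 against 97 to 102 CPM in 1 mM at 15 min (0.861). CRF11 was high in the first library of 10 mM at 90 min, 25.5 against 17.2 to 17.5 CPM (0.957), and low in the fourth of 1 mM at 90 min, 18.2 against 24.2 to 24.9 CPM (0.902). NRT1.8 was low in the second library of 10 mM at 45 min, 3.36 against 9.24 to 10.3 CPM (0.899), and in the fourth of 1 mM at 90 min, 3.22 against 6.31 to 6.96 CPM (0.866).

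The rest were ZIF1 (0.857) and MAPKKK15 (0.856), both low in 10 mM at 15 min, TOE3 (0.8294), low in 10 mM at 180 min, MAPKKK17 (0.869), low in 1 mM at 180 min, and AT4G28290 (0.856), high in 1 mM at 180 min.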

How the results depend on the processing

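The number of genes that met the rule was 76. It was 28 with a peak change of at least 1 and 232 with at least 0.6, and lay between 61 and 96 under the other settings; without 1 batch it was 73 to 96. How many of the 76 were among them varied more: 62 of 81 with TMM-scaled CPM, 46 of 96 from the 1 mM libraries alone, 49 of 94 from the 10 mM libraries alone, and 47 to 54 without 1 batch. TMM scaling moved the median of all genes by 0.04 to 0.06 at the 4 times. No member was called for 10 mM against 1 mM in any test under any alternative run; DESeq2 gave no adjusted p for 34 members in the mean of 45 and 90 min. With the replicate block 0 members were called in all 6 tests; genome-wide it called 2 genes at 15 min, 9 at 90 min and 13 for the mean of 45 and 90 min, where edgeR without the block called 0, and 0 in the other tests. Without batch 1, 1 gene was called at 15 min. The 10 mM against 1 mM log2 fold change of ATCG01130 at 45 min reversed to 0.05 without the fourth 1 mM library, whose 134 CPM set its value, and lay between -3.02 and 0.26 without 1 batch. Members near 2 CPM rest on few reads, which limits the precision of their differences between 10 and 1 mM KNO3.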
